A study of Rattus norvegicus with 2 samples.

Results

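Proteoglycans are core proteins that carry long sulfated sugar chains, the glycosaminoglycans, and they were examined here together with the enzymes that build and edit those chains. The members were all probes whose annotated gene symbol begins with the syndecan, glypican or chain-enzyme roots (Sdc, Gpc, Hs2st, Hs3st, Hs6st, Ndst, Ext1, Ext2, Extl, Chst, Chsy, Csgalnact, Xylt, B4galt7), or names one of 15 further genes: decorin (Dcn), biglycan (Bgn), lumican (Lum) and their relatives Fmod, Prelp, Ogn, Aspn and Kera, the hyalectans Vcan, Acan, Ncan and Bcan, serglycin (Srgn), and the endosulfatases Sulf1 and Sulf2. This gave 78 of 40012 probes and 58 of 15610 named genes, 22 core proteins and 36 enzymes. No filter on low values was applied, so all 58 were kept. Whether each was detected above background was not examined.

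Chain building starts when a xylose is placed on a serine of the core protein and a short linkage sugar is completed. Chains that then receive glucosamine become heparan sulfate, and those that receive galactosamine become chondroitin or dermatan sulfate. Sulfotransferases next place sulfate groups that decide which growth factors, chemokines and proteases the chain binds. In lung, small leucine-rich proteoglycans sit on the collagen fibrils of airway and vessel walls, versican lies in the loose matrix, and heparan sulfate lines alveolar epithelium, capillaries and basement membranes.

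RNA of untreated, uncultured rat lung cells was labelled with Cy3 and hybridised on 2-colour Agilent arrays against Cy5-labelled mix1. Mix1 combined rat bone marrow cells (BMC) with primary fibroblasts of the rat ear (PEF), each grown in culture with fetal bovine serum. The strain, the age and the share of each cell type in mix1 are not stated in the labels. The lung group held 2 samples, replicates 1 and 2, and mix1 was 1 control RNA on both arrays. The arrays address which genes differ in expression between lung and the cells of mix1.

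Each value is the log2 ratio of lung over mix1, so 1 is a 2-fold higher and -1 a 2-fold lower level in lung. The direction is likely and not stated outright. It was read from the wording of the series and from 6 lung genes (Sftpc, Sftpa1, Sftpb, Sftpd, Scgb1a1 and Ager), which lay between 3.94 and 7.02 and so support no result here. If the sign were the reverse, all directions below would swap. The labels do not name separate animals, so p-values rest on a spread between samples that may be only technical. The spread of mix1 itself was not measured, the dyes were not swapped, and uncultured against cultured state and lung against mix1 cannot be told apart. In RNA of whole cell mixtures, fewer cells of a type and less RNA per cell cannot be told apart either. No source used here says how background was corrected, so the size of a ratio in which one channel is dim is uncertain.

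More members were lower than higher in lung. In limma's moderated test at a Benjamini-Hochberg adjusted p under 0.05, 37 of 58 members were lower (63.8%) and 14 were higher (24.1%), against 49.7% lower and 32.9% higher among all genes. The remaining 7 members were not called. Because 82.7% of all genes passed this test, size is the more informative measure. A size of 2-fold or more in both arrays was reached by 24 members on the lower side (41.4%) and 8 on the higher side (13.8%), against 15.8% and 16.5% of all genes (32.3% in either direction). A size of 4-fold or more in both arrays was reached by 14 lower members (24.1%) and 5 higher members (8.62%), against 5.12% and 8.46% of all genes. The share of strongly higher members was thus near the background and the share of strongly lower members above it, a description with no test of the list. The median member lay at -0.68 and the median gene at -0.22.

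**Figure D1:**
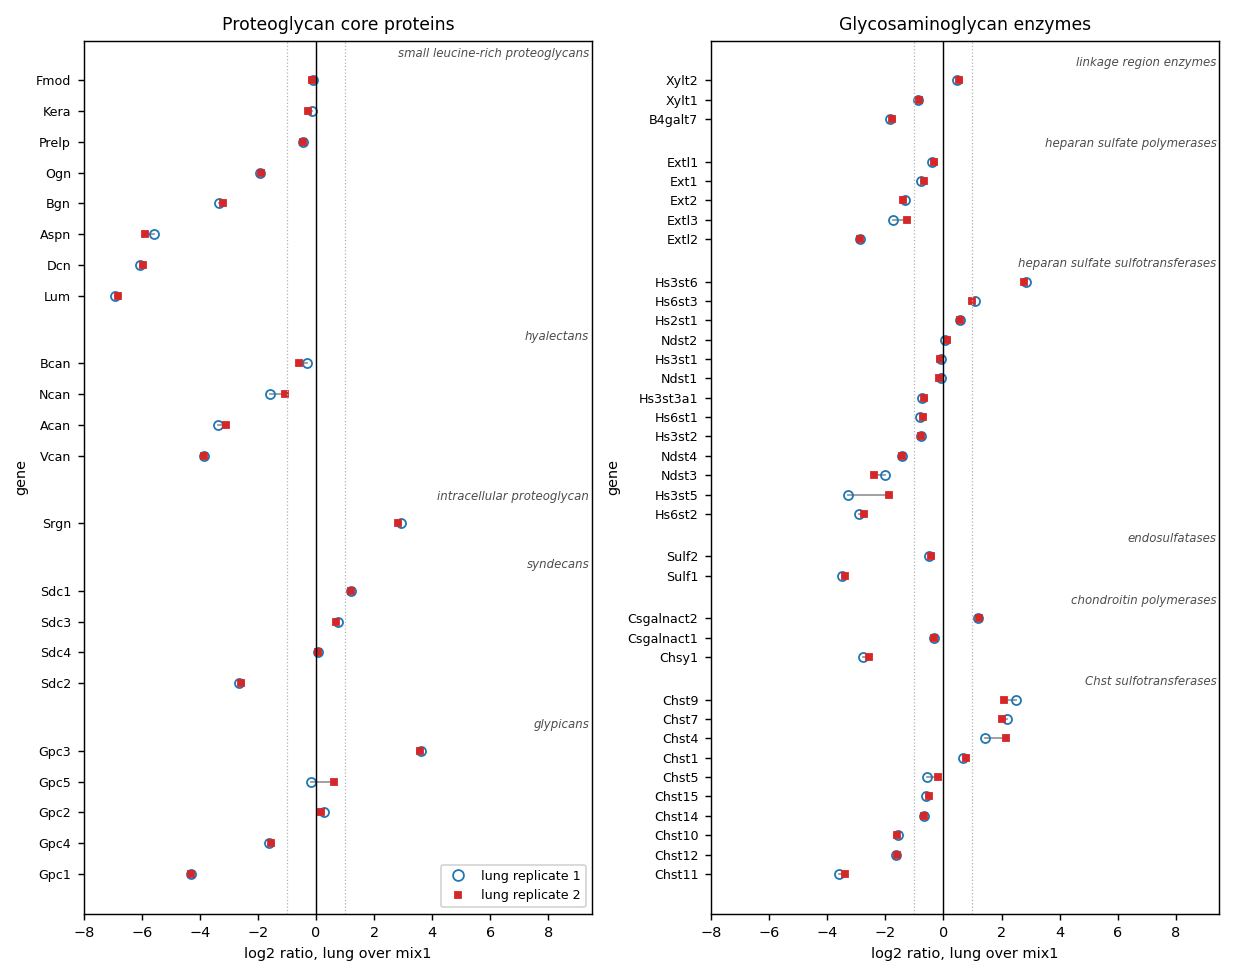
Log2 ratio of lung over mix1 (x axis) for each of the 58 members (y axis), core proteins on the left and enzymes on the right, ordered by role. Circles are lung replicate 1, squares are lung replicate 2, and dotted lines mark 2-fold. Lum at -6.87 and Gpc3 at 3.58 are the extremes, and both replicates of most members nearly coincide.

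The lowest ratios belonged to the small leucine-rich proteoglycans, secreted proteins that bind collagen fibrils. Lumican (Lum), which spaces collagen fibrils, lay at -6.91 in replicate 1 and -6.84 in replicate 2. Its mean was -6.87 ± 0.05 (SD, n = 2), or 117-fold lower in lung (limma adjusted p 0.00117), and it ranked 25 from the lowest of all 15610 genes. Decorin (Dcn), which binds collagen and TGF-beta, lay at -6.08 and -5.98, a mean of -6.03 ± 0.07 and 65.2-fold lower (adjusted p 0.00117). Both arrays placed these genes far below 0, with little difference between replicates. Asporin (Aspn), a decorin relative with a run of aspartates, lay at -5.59 and -5.90, a mean of -5.74 ± 0.22 and 53.5-fold lower (adjusted p 0.00127). Biglycan (Bgn), the closest relative of decorin, lay at -3.36 and -3.21, a mean of -3.28 ± 0.11 and 9.72-fold lower (adjusted p 0.00125). These 4 genes were more than 4-fold lower in both arrays.

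The other members of that family did not share this size. Osteoglycin (Ogn) lay at -1.94 and -1.90, but its 2 probes gave -0.13 and -3.72, so its size rests on which probe is read. Prelp, an anchor between basement membrane and connective tissue, lay at -0.44 in both arrays (adjusted p 0.00488). Keratocan (Kera), a keratan sulfate proteoglycan of the cornea, lay at -0.15 and -0.27, just past the threshold (adjusted p 0.0496). Fibromodulin (Fmod), a collagen fibril regulator, lay at -0.12 and -0.13 and just missed it (adjusted p 0.05 after rounding). The Kera call was lost with arrays scaled to each other (adjusted p 0.0534). With array medians subtracted, it was lost at -0.02 and Fmod went to 0.065, also not called, so neither has a settled direction. In all, 7 of 8 members of the family were called lower (87.5%), against 49.7% of all genes. None was higher, and the median was -2.60. In both arrays 5 (62.5%) were at least 2-fold lower, against 15.8% of all genes.

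Some of these genes lie side by side in the genome, and neighbours were of like size in some places and not in others. In the RefSeq gene order of assembly GRCr8, Dcn, Lum, Kera and Epyc are consecutive protein-coding genes, and the first 2 were both strongly lower. The ratio of Lum minus that of its neighbour Kera was -6.76 and -6.57 on the log2 scale. Epiphycan (Epyc), a cartilage member of the family outside the selected symbols, lay at -2.10 and -1.95. Ogn, Omd and Aspn also lie in a row. Osteomodulin (Omd), a bone keratan sulfate proteoglycan between Ogn and Aspn, lay at -0.02 and 0.04 and was not called (adjusted p 0.800). Prelp and Fmod are neighbours as well, next to opticin (Optc), and all 3 lay within 2-fold of 0. In the Lum and the Aspn rows a strongly lower gene also stood beside a gene near 0. Whether Kera and Omd were detected in either channel was not examined.

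The hyalectans, large chondroitin sulfate proteoglycans that bind hyaluronan, were called lower for 4 of 4 genes, against 49.7% of all genes. Their median was -2.28. In both arrays 3 of them (75.0%) were at least 2-fold lower, against 15.8% of all genes. Versican (Vcan), the hyalectan of loose connective tissue, lay at -3.86 in both arrays (SD 0.0014, n = 2; 14.5-fold lower, adjusted p 0.00117). Its 2 probes gave means of -3.52 and -4.20. Between replicates 1 and 2 they shifted in opposite directions (-3.54 to -3.49, and -4.17 to -4.23). The SD of their average is therefore smaller than the spread of either probe. Aggrecan (Acan), the main proteoglycan of cartilage, lay at -3.37 and -3.09, a mean of -3.23 ± 0.20 and 9.4-fold lower (adjusted p 0.00183). Both were more than 4-fold lower in each array. The nervous system hyalectans were closer to 0. Neurocan (Ncan) lay at -1.57 and -1.08 (adjusted p 0.0151). Brevican (Bcan) lay at -0.33 and -0.60 (adjusted p 0.0384), with 3 probes between -1.27 and 0.35, and the call was lost when the median probe was used (adjusted p 0.0737).

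Genes that mark fibroblasts moved with these secreted cores. All 8 measured fibroblast markers (Col1a1, Col1a2, Col3a1, Pdgfra, Pdgfrb, Thy1, Prrx1 and Fap) were lower in lung, between -7.44 and -1.01 with a median of -6.13. Lum, Dcn and Aspn lay within that range and Kera and Fmod above it. Proliferation genes were lower for 5 of 6, between -4.28 and -1.79, and Aurkb at -0.04 was not called. Among all genes, 49.7% were called lower. The part of fibroblast number and of growth in culture in the proteoglycan ratios was not tested.

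Serglycin (Srgn), which packs proteases and histamine in granules of blood cells, was higher in lung. It lay at 2.92 and 2.83, a mean of 2.88 ± 0.07 (SD, n = 2), or 7.34-fold higher in lung (adjusted p 0.00118). Leukocyte markers moved in the same direction: 7 of 7 measured were higher (all genes 32.9%), between 1.46 and 3.60 with a median of 2.22. Of 8 mast cell markers, 7 were higher, up to 3.38 for the chymase Cma1, and Tpsab1 lay at 0.01. The ratio of Srgn thus fell inside the ranges of both lists. It also fell inside those of endothelial markers (2.27 to 6.23) and epithelial markers (1.40 to 7.95). The part of any of these cells in the Srgn ratio was not tested.

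The syndecans, transmembrane cores that carry mostly heparan sulfate, went in both directions. Syndecan 1 (Sdc1), the syndecan of epithelia and plasma cells, was higher at 1.21 and 1.2 (mean 1.2 ± 0.0055; SD, n = 2; adjusted p 0.00151). Syndecan 3 (Sdc3), best known from nerve and muscle, was higher at 0.76 and 0.68 (adjusted p 0.00356), although its 2 probes gave 0.04 and 1.40. Syndecan 2 (Sdc2), the main syndecan of fibroblasts, was lower at -2.64 and -2.58 (mean -2.61 ± 0.04, 6.12-fold, adjusted p 0.00117). The ratio of Sdc1 minus that of Sdc2 was 3.85 and 3.78 on the log2 scale in the 2 arrays, a gap between ratios and not between levels. Syndecan 4 (Sdc4), a widely expressed partner of integrins in focal adhesions, lay at 0.07 in both arrays and was not called (adjusted p 0.140). It passed as higher at 0.26 with array medians subtracted. Among all genes, 32.9% were called higher. Epithelial markers were higher for 8 of 8 genes, between 1.40 and 7.95, and endothelial markers for 8 of 8, between 2.27 and 6.23. Their part in the syndecan ratios was not tested.

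The glypicans, heparan sulfate cores tied to the membrane by a lipid anchor, held both the highest member and one of the lowest. Glypican 3 (Gpc3), a restraint on growth whose loss causes an overgrowth syndrome, lay at 3.60 and 3.57. Its mean was 3.58 ± 0.018 (SD, n = 2), or 12.0-fold higher in lung (adjusted p 0.00117), from 2 probes at 2.81 and 4.36. Glypican 1 (Gpc1), a co-receptor for fibroblast growth factors, lay at -4.31 and -4.32, or 19.9-fold lower (adjusted p 0.00117), and its 2 probes agree at -4.23 and -4.40. The ratios of Gpc3 and Gpc1 were 7.90 and 7.89 apart in the 2 arrays. Glypican 4 (Gpc4) lay at -1.61 and -1.57 (adjusted p 0.00134), with ratios 5.20 and 5.14 below those of Gpc3. Gpc3 and Gpc4 are close neighbours on the X chromosome, with 2 other protein-coding gene models between them in the RefSeq order, and they had opposite signs in both arrays. Glypican 2 (Gpc2), a neuronal glypican, lay at 0.27 and 0.17 (adjusted p 0.0367). Glypican 5 (Gpc5) was the only member with opposite signs in the arrays, at -0.17 and 0.62 (adjusted p 0.495). The family median of 0.22 therefore says little, and without replicate 2 it was -0.17.

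**Figure D2:**
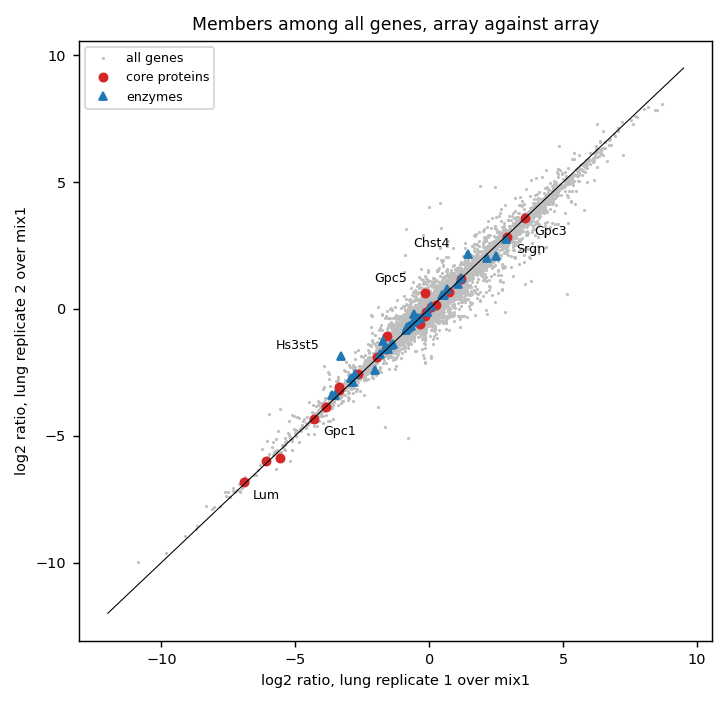
Log2 ratio of lung over mix1 in replicate 1 (x axis) against replicate 2 (y axis) for all 15610 genes (grey dots), with the 22 core proteins as red circles and the 36 enzymes as blue triangles; the line marks equal values. Members lie along the line from Lum to Gpc3, with Hs3st5, Chst4 and Gpc5 farthest from it.

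Promoter sequences are shown for 4 members whose listed start lies at the outer end of the gene and whose ratios differ widely: the highest core (Gpc3), the highest member enzyme (Hs3st6), a strongly lower core (Vcan) and a core near 0 beside strongly lower neighbours (Kera). They are the 250 bases before the start, 5′ to 3′ on the gene's strand, from RefSeq on GRCr8. Capitals mark matches on either strand to the TATA box TATAAA, the CCAAT box, the GC box with the letters GGGCGG, or the AP-1 site with the letters TGANTCA; none of these overlap each other here.
Gpc3, chrX:137157599-137157848, minus strand: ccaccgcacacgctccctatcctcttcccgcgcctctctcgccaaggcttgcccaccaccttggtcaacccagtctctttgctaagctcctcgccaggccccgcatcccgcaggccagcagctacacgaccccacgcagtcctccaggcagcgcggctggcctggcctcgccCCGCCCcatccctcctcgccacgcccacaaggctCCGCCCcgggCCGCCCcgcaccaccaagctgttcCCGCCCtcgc
Hs3st6, chr10:14286305-14286554, plus strand: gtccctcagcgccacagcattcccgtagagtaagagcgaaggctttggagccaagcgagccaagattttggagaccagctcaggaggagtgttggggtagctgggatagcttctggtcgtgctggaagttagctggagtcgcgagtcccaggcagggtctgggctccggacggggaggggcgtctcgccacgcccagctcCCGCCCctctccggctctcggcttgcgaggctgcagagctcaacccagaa
Vcan, chr2:22595956-22596205, minus strand: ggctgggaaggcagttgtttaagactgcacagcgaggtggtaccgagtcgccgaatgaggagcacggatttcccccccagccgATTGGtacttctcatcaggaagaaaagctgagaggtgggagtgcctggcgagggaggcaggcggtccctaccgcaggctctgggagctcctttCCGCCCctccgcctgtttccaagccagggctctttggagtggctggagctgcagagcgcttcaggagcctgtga
Kera, chr7:34283850-34284099, plus strand: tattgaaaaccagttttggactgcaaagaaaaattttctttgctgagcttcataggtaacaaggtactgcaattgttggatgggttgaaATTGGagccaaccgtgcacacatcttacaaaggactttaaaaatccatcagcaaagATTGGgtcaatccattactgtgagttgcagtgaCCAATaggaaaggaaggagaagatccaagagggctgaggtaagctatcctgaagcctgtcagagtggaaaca
Gpc3 held 4 GC boxes and 22 CG pairs, Hs3st6 held 1 GC box and 16 CG pairs, Vcan held 1 GC box, 1 CCAAT box and 12 CG pairs, and Kera held 3 CCAAT boxes and 1 CG pair. Of the 58 members, 44 matched a promoter in the table by symbol. A GC box was present in 27 of the 44 (61.4%), against 30.5% of all 33465 promoters of the table and 40.3% of the first listed promoters of 18995 protein-coding genes. A TATA box was present in 3 members (6.82%), against 12.9% of all promoters and 12.3% of the first listed promoters of protein-coding genes. In the same order, a CCAAT box was present in 14 (31.8%), against 34.0% and 35.5%. An AP-1 site was present in 1 (2.27%), against 6.34% and 5.82%. The median member had 15.5 CG pairs, against 9 for protein-coding genes. These matches describe the letters and were not tested.

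Enzymes that start the chains were mostly lower. B4galt7, which adds the first galactose of the linkage sugar, lay at -1.84 and -1.78 (adjusted p 0.00131), with probes at -1.21 and -2.41. The xylosyltransferases, which place the first sugar on the core, differed in direction. Xylt1 was lower at -0.87 and -0.83 (adjusted p 0.00235) and Xylt2 was higher at 0.46 and 0.53 (adjusted p 0.00612), a gap between their ratios of 1.34 and 1.36. The 6 genes listed for this step among the further pathway genes were all called lower, against 49.7% of all genes. Of the 6, 1 (16.7%) was at least 2-fold lower in both arrays, near the 15.8% of all genes. B3gat2 and Fam20b lost the call with array medians subtracted. Among the 6, B3galt6, which adds the second galactose, lay at -1.67 and -1.70. B3gat3, which adds the closing glucuronic acid, lay at -0.67 and -0.68. The list also holds B3gat1 and B3gat2, relatives of B3gat3 whose part in this step is not shown here. Xylt2 was thus the 1 higher gene of the 9 listed here for the linkage step.

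Heparan sulfate polymerases were called lower for 5 of 5 genes, against 49.7% of all genes. Their median was -1.37, and the median gene lay at -0.22. In both arrays 3 of the 5 were at least 2-fold lower, against 15.8% of all genes. Extl2, a transferase that can end a chain at the linkage sugar, lay at -2.86 and -2.87, a mean of -2.86 ± 0.0099 (SD, n = 2) and 7.28-fold lower (adjusted p 0.00117). Extl3, which starts the heparan chain, lay at -1.73 and -1.26 (adjusted p 0.0112). The polymerase partners Ext1 and Ext2 lay at -0.71 ± 0.07 and -1.37 ± 0.04. The 3 probes of Ext1 ranged from -1.25 to -0.19. Extl1 lay nearest to 0 at -0.41 and -0.34 (adjusted p 0.01), and its call was lost with array medians subtracted (adjusted p 0.0652). Glce, the epimerase that turns glucuronic into iduronic acid in heparan sulfate, lay at -1.06 in replicate 1 and -1.0 in replicate 2.

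Among 13 heparan sulfate sulfotransferases, 7 were lower (53.8%), 3 higher (23.1%) and 3 not called, with a median of -0.70. These shares are near the 49.7% lower and 32.9% higher of all genes. The enzymes that act first, the N-deacetylase/N-sulfotransferases, were near 0 for Ndst1 (-0.09 and -0.14) and Ndst2 (0.06 and 0.13), neither called, although Ndst2 passed as higher at 0.28 with array medians subtracted. Ndst3 (-2.01 and -2.39, adjusted p 0.00417) and Ndst4 (-1.44 and -1.43, adjusted p 0.00135), the isoforms of narrow expression, were lower. The values of Ndst3 and Ndst4 were more than 2-fold below 0 in both arrays. Hs2st1, the single 2-O-sulfotransferase, was higher at 0.57 and 0.56 (adjusted p 0.00342).

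Among the 6-O-sulfotransferases, Hs6st3 was higher at 1.07 and 0.98 (adjusted p 0.00250) and Hs6st1 lower at -0.82 and -0.72 (adjusted p 0.00405). Hs6st2 was lower at -2.92 and -2.73 (mean -2.82 ± 0.13, 7.08-fold, adjusted p 0.00152), but its 2 probes gave -1.07 and -4.58. The lesser of these lies beside the lowest Hs6st1 probe at -0.98, so whether Hs6st1 and Hs6st2 differ in size rests on the probe read. Of the 3 genes, Hs6st3 had the positive ratio. The 3-O-sulfotransferases finish the chain with a rare modification known from the antithrombin site of heparin. Hs3st6 had the highest ratio of the 36 member enzymes, at 2.86 and 2.77, a mean of 2.81 ± 0.06 and 7.02-fold higher in lung (adjusted p 0.00118). Hs3st1, the isoform tied to the antithrombin site, lay at -0.10 and -0.12 and was not called (adjusted p 0.0650). Hs3st2 (-0.78 ± 0.010) and Hs3st3a1 (-0.70 ± 0.04) were lower. Hs3st5 lay at -3.30 and -1.86, a mean of -2.58 ± 1.02, the widest spread of any member (adjusted p 0.0320). Its sign was the same in both arrays but its size was not settled.

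The endosulfatases Sulf1 and Sulf2 remove 6-O-sulfates from finished heparan sulfate outside the cell. Sulf1 lay at -3.5 and -3.39, a mean of -3.45 ± 0.08 (SD, n = 2) and 10.9-fold lower in lung (adjusted p 0.00117). Sulf2 lay at -0.49 and -0.44 (adjusted p 0.00553). Both were lower, Sulf1 by the larger factor. The ratio of Sulf2 minus that of Sulf1 was 3.01 and 2.95 on the log2 scale, which compares their differences between lung and mix1 and not their levels.

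Chondroitin chain enzymes also differed among themselves. Chsy1, the chondroitin synthase that lengthens the chain, was lower at -2.78 and -2.58 (mean -2.68 ± 0.14, 6.41-fold, adjusted p 0.00168). Csgalnact2, one of the enzymes that add the first galactosamine, was higher at 1.2 and 1.22 (adjusted p 0.00151), with 4 probes between 0.84 and 1.56. Its partner Csgalnact1 lay at -0.33 and -0.34 (adjusted p 0.00786), a call lost with array medians subtracted (adjusted p 0.0844). The polymerising factors Chpf (-2.36 and -2.31) and Chpf2 (-2.73 and -2.68) lay close to Chsy1. The dermatan sulfate epimerases Dse (-2.20 and -2.15) and Dsel (-2.06 and -1.84) were lower as well. Csgalnact2 was thus higher while the genes of chain lengthening and epimerisation were lower.

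The Chst sulfotransferases act on several sugars. Of 10 genes, 5 were lower (50%), 4 higher (40%) and 1 not called, close to the 49.7% and 32.9% of all genes. Chst11, the main chondroitin 4-O-sulfotransferase, lay at -3.61 and -3.38, a mean of -3.5 ± 0.16 (SD, n = 2) and 11.3-fold lower (adjusted p 0.00146). Chst12, a second chondroitin 4-O-sulfotransferase, lay at -1.63 and -1.59 (adjusted p 0.00134). Chst14, which sulfates dermatan sulfate, lay at -0.67 ± 0.013 with probes at -0.02 and -1.32, and Chst15, which adds a further sulfate to 4-sulfated chondroitin, at -0.56 ± 0.07. These 4 genes were lower, with Chst11 farthest from 0. Chst7, a chondroitin 6-O-sulfotransferase, was higher at 2.17 and 2.01, a mean of 2.09 ± 0.11 and 4.26-fold (adjusted p 0.00176).

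The remaining Chst genes act on other glycans. Chst9, which 4-O-sulfates galactosamine on glycoprotein chains, was higher at 2.48 and 2.07, a mean of 2.28 ± 0.29 (SD, n = 2) and 4.85-fold (adjusted p 0.00445), and its 2 probes agree at 2.21 and 2.34. Chst4, which makes L-selectin ligands, was higher at 1.43 and 2.15 (mean 1.79 ± 0.51, adjusted p 0.0174). Chst1, a keratan sulfate sulfotransferase, was higher at 0.67 and 0.78 (adjusted p 0.00483). Each of the 3 was positive in both arrays. Chst10, which makes the HNK-1 epitope, was lower at -1.55 and -1.60 (adjusted p 0.00135). Chst5, a glucosamine 6-O-sulfotransferase, lay at -0.58 and -0.20 and was not called (adjusted p 0.0905).

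**Figure D3:**
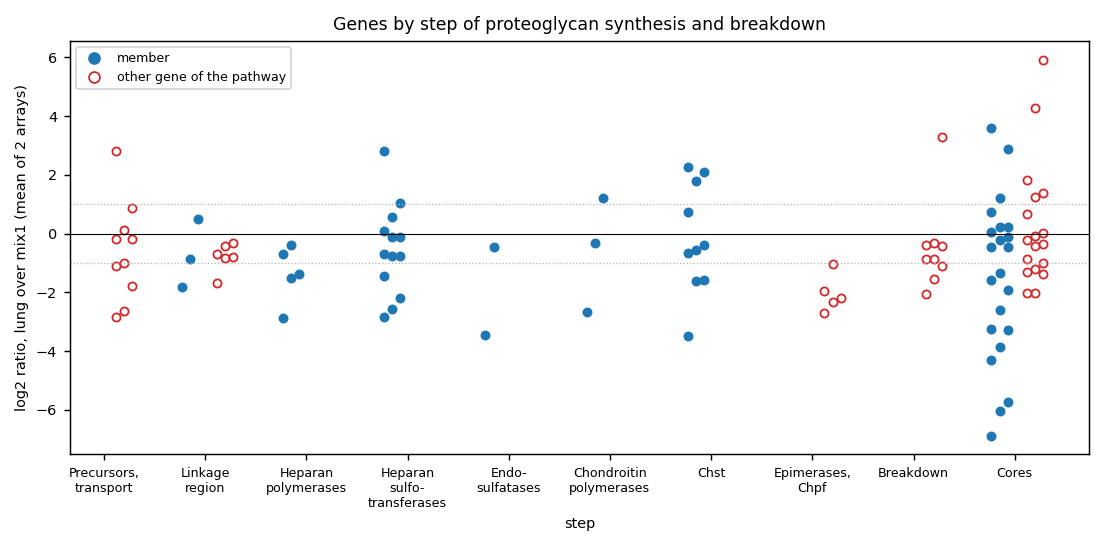
Mean log2 ratio of lung over mix1 over 2 arrays (y axis) for members (filled) and other measured pathway genes (open), by step (x axis); the epimerases column holds Glce, Dse, Dsel, Chpf and Chpf2, and dotted lines mark 2-fold. The columns of heparan polymerases, of endosulfatases, and of epimerases and Chpf hold lower genes only, whereas the sulfotransferase and core columns reach from below -2 to above 2.

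The wider pathway was counted over 48 measured genes, from a list of 62 symbols. Of these, 35 were lower, 8 higher and 5 not called, or 72.9% lower and 16.7% higher against 49.7% and 32.9% of all genes. In both arrays 18 (37.5%) were at least 2-fold lower, against 15.8% of all genes, and 7 (14.6%) at least 2-fold higher, near the 16.5% of all genes. Their median was -0.81. With array medians subtracted, 28 were lower and 9 higher. The highest was Spock2, a testican core of heparan and chondroitin sulfate, at 5.96 and 5.88. It was followed by lubricin (Prg4), a lubricant of joints and linings, at 4.43 and 4.14. Heparanase (Hpse), which cuts heparan sulfate chains, lay at 3.19 and 3.39 (adjusted p 0.00141). The other 8 measured genes listed for breakdown were called lower, of which Hpse2 and Arsg lost the call with array medians subtracted. Hpse2 is listed as a relative of Hpse, and its part in breakdown is not shown here. Of the 9 genes so listed, 3 (33.3%) were at least 2-fold lower in both arrays, against 15.8% of all genes. The sulfate transporter Slc26a2 lay at 2.85 and 2.76 (adjusted p 0.00118).

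The 4 lowest of these further genes act in precursor supply and chain lengthening. Papss2, which makes the sulfate donor, lay at -3.05 and -2.62 (adjusted p 0.00344), Chpf2 at a mean of -2.71, Ugdh, which makes the glucuronic acid donor, at -2.63 and -2.66 (adjusted p 0.00117), and Chpf at a mean of -2.34. The sulfate donor's Golgi transporter Slc35b2 lay at -1.12 and -1.11, and the other transporter Slc35b3 at 0.88 and 0.84. Slc26a2, for uptake of sulfate, and Papss2, for its activation, thus had ratios of opposite sign in both arrays. Papss1, listed beside Papss2, was not among the named genes, so the activation step was covered only in part.

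Precision varied between members. The median SD between arrays was 0.05 for members and for all genes alike. The 5 members with an SD over 0.3 were Hs3st5, Gpc5, Chst4, Ncan and Extl3. Of the 58 members, 57 had the same sign in both arrays. Only 15 members had several probes, and in 8 of these the probes spanned at least 2-fold: Ogn, Hs6st2, Bcan, Gpc3, Sdc3, Chst14, B4galt7 and Ext1. For Ogn the span was 3.59 and for Hs6st2 it was 3.5 on the log2 scale, far more than the SD between arrays. The SDs given here cover arrays and not probes, and for the 43 members with 1 probe no such check was possible.

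**Figure D4:**
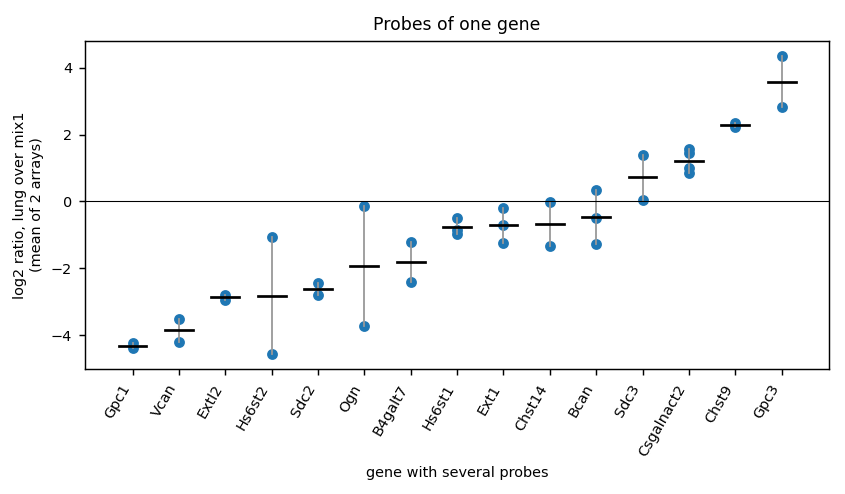
Mean log2 ratio of lung over mix1 over 2 arrays (y axis) of each probe (dots) for the 15 members with several probes (x axis, ordered by gene mean); black bars are the gene means and grey lines join probes of a gene. Ogn and Hs6st2 have probes 3.59 and 3.5 apart, whereas the probes of Gpc1, Extl2 and Chst9 nearly coincide.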

How the data were processed

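Total RNA of cell pellets was hybridised on 2-colour arrays, 1 per lung sample, per the labels' protocols. Agilent Feature Extraction is named in the submitters' processing notes. For background correction, dye normalization and centring, no details are given in the sources used here. Intensities of the single channels were not analysed here. The authors deposited 1 value per probe and array, taken as a log2 ratio of the channels: no source states the base, and the range of -11.74 to 9.09 is too wide for base 10. No value is missing. The median probe lies at -0.16 (replicate 1) and -0.21 (replicate 2).

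GEO's platform annotation names 20417 probes, each with 1 symbol; 19595 are unnamed here. Symbols were updated against RefSeq genes of GRCr8 by accession (16978 probes), symbol (3044) or synonym (387), and 8 were kept. Probes of a gene were averaged. All 15610 genes were fitted with limma 3.58.1 in R 4.3.3 (intercept, eBayes, Benjamini-Hochberg, threshold 0.05), with 1 residual and 1.28 prior degrees of freedom, and the fit was tested on simulated data. The number of arrays limits the precision.

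The members, role groups, further pathway genes and marker lists were chosen with earlier results of these data known. Every member could be named, with full statistics for those at least 4-fold from 0 in both arrays and the extremes of each role group, and for further pathway genes the 4 highest and 4 lowest and partners of a step. Motifs were searched in RefSeq promoters with Python 3.11.15. The alternatives tried were the median probe, subtraction of array medians, scaling between arrays, genes with opposite probes left out, treat, an adjusted p under 0.01, single probes and leaving out each array.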

Additional observations from a re-analysis of the deposited data

How the results depend on the processing

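Subtracting array medians raised the median gene by 0.19, and with it the median of the members to -0.50 and that of the small leucine-rich proteoglycans to -2.41, serglycin to 3.06, syndecans to 0.58, linkage enzymes to -0.66, heparan polymerases to -1.18, heparan sulfotransferases to -0.51, endosulfatases to -1.77, chondroitin polymerases to -0.15 and Chst genes to -0.29. In that setting 16 members were higher and 34 lower; Fmod went to 0.065, Hs3st1 to 0.077 and Ndst1 to 0.071, none of them called with either centring. With limma's treat against 2-fold, 7 members were higher and 21 lower, and 5 and 14 of the further pathway genes; fewer genes pass by its construction. Array medians subtracted left 28 of 35 further pathway genes lower. The other settings left every count of members within 1.5 times its value, and 57 of 58 members kept direction and call with arrays scaled, with the median probe, and with genes with opposite probes left out. The last setting left 38 members lower because Fmod then passed (adjusted p 0.0499).

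The median of the glypicans ran from -0.17 to 0.17 and that of the heparan polymerases from -1.34 to -1.26 when each array was left out. With 1 array left there is no test. No paired analysis was possible because the series has 1 group and 1 control RNA. Alternatives for background correction, dim probes and slide were not run, since the values used here hold no intensities.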
